A study of Homo sapiens with 4 samples.

Results

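The ID family consists of 4 paralogous genes in the human genome, ID1, ID2, ID3 and ID4. FOXC1 peaks near these 4 genes, out of 20163 protein-coding genes, were collected from 2 biological replicates of a FOXC1 chromatin immunoprecipitation sequencing (ChIP-seq) experiment. Peaks were assigned to an ID gene when their summit, the position of highest read pileup, lay in the gene body or within 100 kb of it on hg19. This gave 14 of the 22405 peaks of replicate 1 and 34 of the 41789 peaks of replicate 2. The experiment was done in J82, a bladder cancer cell line for which the labels give no treatment, with the anti-FOXC1 antibody D8A6, and each replicate had an input library prepared without antibody. The data therefore describe bulk cultures of 1 cell line and 1 antibody, and they hold no measurement of ID gene expression.

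ID proteins carry a helix-loop-helix domain but lack the basic region that contacts DNA. They pair with E proteins and with some tissue-specific basic helix-loop-helix (bHLH) factors, and the pair cannot bind its target, the E-box CANNTG. They are known for holding back differentiation and for their induction by bone morphogenetic protein (BMP) through SMAD proteins. FOXC1 belongs to the forkhead family, whose members recognise a short core such as GTAAACA.

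The replicates had similar depth but unlike peak numbers. The ChIP reads behind the lists were estimated at 43200000 in replicate 1 and 41500000 in replicate 2. The lowest background over any summit, taken as the genome background, was 4.16 reads in replicate 1 and 4.15 reads in replicate 2. The median background over summits was 4.95 and 4.75 reads. Overlapping peaks of the replicates formed 13238 shared regions, of which 5983, or 45.2%, were reproducible at an irreproducible discovery rate (IDR) of 0.05 or less. IDR compares how the replicates rank the same region. In shared regions the median ratio of reads in replicate 2 to reads in replicate 1 was 1.80, with quartiles of 1.48 and 2.15, so a higher value in replicate 2 was the rule across the genome.

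Sequences around 6 summits and of the stretch before the ID1 start are shown with the words they held. Those of the ID1 regions 9.46 kb and 90.8 kb upstream and 99.4 kb downstream, which held no forkhead word, are left out. Forkhead words lay in 4 of the 9 shared regions near ID genes, against 48.7% of all shared regions. Each sequence shown is hg19, plus strand, 5′ to 3′. Capitals mark forkhead words on either strand (GTAAACA, its variant ATAAACA, likewise GTAAATA, and also ATAAATA), except at ID3, where they mark the E-box word CAGCTG.
ID3, 2.94 kb upstream, chr1:23888859-23889009: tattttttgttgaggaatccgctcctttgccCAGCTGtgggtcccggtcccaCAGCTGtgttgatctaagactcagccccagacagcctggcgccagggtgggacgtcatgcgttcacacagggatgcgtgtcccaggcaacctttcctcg
ID1, 2.18 kb upstream, chr20:30190830-30190980: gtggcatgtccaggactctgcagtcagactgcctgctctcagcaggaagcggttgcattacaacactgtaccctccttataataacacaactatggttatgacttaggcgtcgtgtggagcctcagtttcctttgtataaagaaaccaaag
ID1, stretch ending at the base before the start, chr20:30192936-30193085: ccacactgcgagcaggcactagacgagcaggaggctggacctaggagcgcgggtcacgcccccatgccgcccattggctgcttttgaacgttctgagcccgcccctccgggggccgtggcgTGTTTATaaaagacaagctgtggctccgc
ID1, 94.9 kb downstream, chr20:30287905-30288055: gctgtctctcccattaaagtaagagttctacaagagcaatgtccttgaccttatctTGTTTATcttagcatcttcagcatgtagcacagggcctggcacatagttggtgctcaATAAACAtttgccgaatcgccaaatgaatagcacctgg
ID4, 78.0 kb upstream, chr6:19759557-19759707: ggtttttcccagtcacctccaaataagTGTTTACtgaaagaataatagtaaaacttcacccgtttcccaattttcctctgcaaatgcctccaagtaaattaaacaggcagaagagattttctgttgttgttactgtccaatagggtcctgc
ID4, 30.0 kb downstream, chr6:19867534-19867684: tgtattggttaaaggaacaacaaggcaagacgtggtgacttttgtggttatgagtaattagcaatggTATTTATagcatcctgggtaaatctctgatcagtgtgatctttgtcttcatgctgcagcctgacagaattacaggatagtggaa
ID2, 1063 bp upstream, replicate 2 only, chr2:8817837-8817987: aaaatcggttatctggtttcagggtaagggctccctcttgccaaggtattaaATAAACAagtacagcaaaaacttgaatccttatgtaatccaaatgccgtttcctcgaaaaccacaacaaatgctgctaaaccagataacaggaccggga

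The number of FOXC1 peaks differed widely among the paralogues. ID1 had 10 peaks in replicate 1 and 22 in replicate 2, ID4 had 3 and 6, ID3 had 1 and 5, and ID2 had 0 and 1. ID1 had the most and ID2 the fewest in both replicates. Among all protein-coding genes, 76.5% had a replicate 1 peak within 100 kb and 89.5% had a replicate 2 peak, against 3 and 4 of the 4 ID genes. Only 2.15% of genes had as many replicate 1 peaks as ID1 or more, and 0.704% had as many replicate 2 peaks. The corresponding shares were 37.6% and 34.7% for ID4 and 76.5% and 44.6% for ID3. The 4 windows were of nearly equal size, from 201233 to 205617 bp, since the genes are short. The median length over all genes was 27.2 kb, which widens their windows. In windows of 100 kb around the start alone, the shares were 0.551% and 0.104% for ID1. They were 28.8% and 23.8% for ID4 and 71.2% and 33.4% for ID3.

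Shared regions numbered 6 at ID1, 2 at ID4, 1 at ID3 and 0 at ID2, 9 in all. A shared region was found near 62.3% of protein-coding genes, so finding one at 3 of 4 ID genes was close to that background. For ID1, 3.19% of genes had 6 or more, and 1.16% in windows around the start alone. Reproducible regions numbered 3 at ID1 and 1 at ID3, with none at ID2 or ID4, and 39% of all genes had one. By this stricter measure 2 of the 4 paralogues had a region. With 1 window per gene and 2 replicates, no test of the difference between paralogues was possible.

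**Figure D1:**
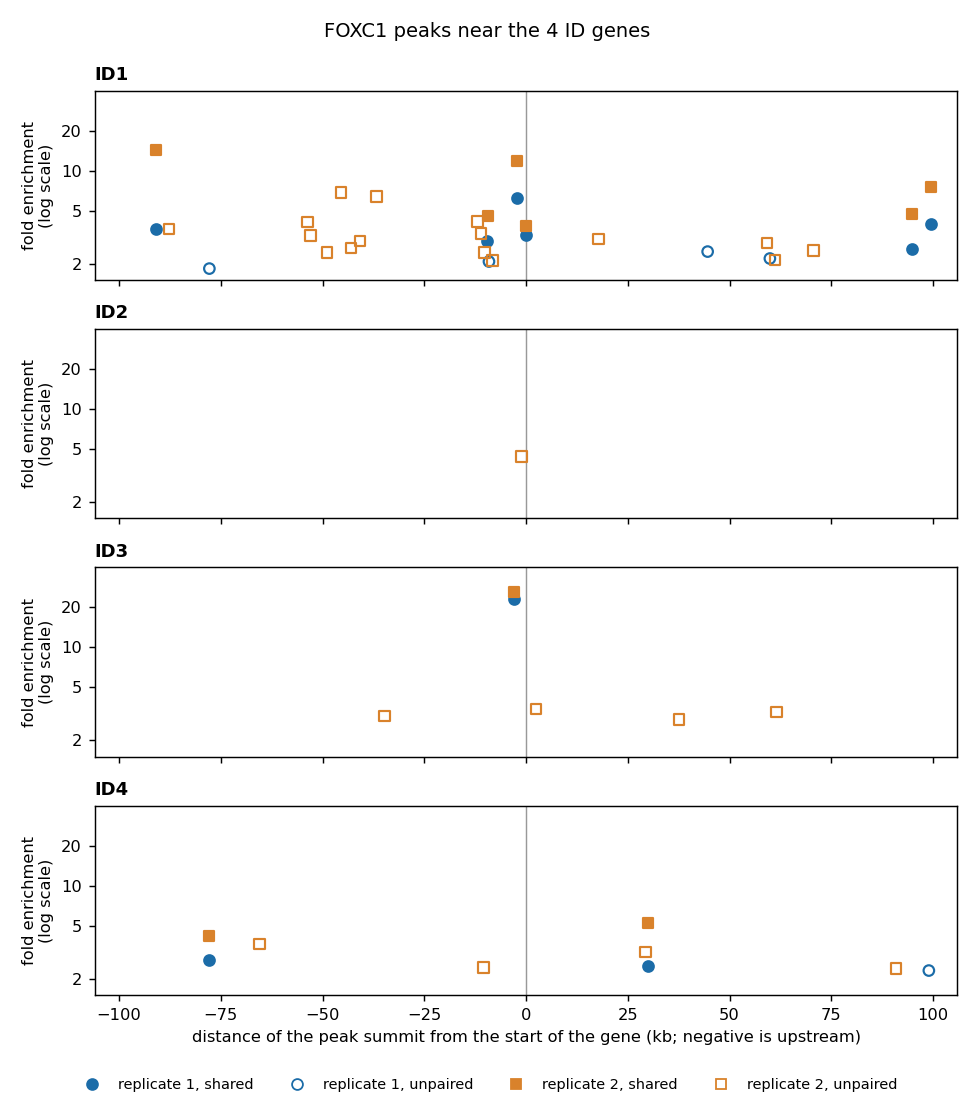
Fold enrichment (log scale) of each FOXC1 peak against the distance of its summit from the gene start in kb, with 1 panel per ID gene; circles are replicate 1, squares replicate 2, filled symbols belong to shared regions and open symbols to unpaired peaks. ID3 has 1 pair of symbols above 20, ID1 has peaks across its whole window, and ID2 has a single open square.

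ID3 (ENSG00000117318, chr1:23884417-23885992, minus strand) had a single strong region. It lay 2.94 kb upstream of the start, at chr1:23888576-23889392, in intergenic sequence. Fold enrichment, the pileup at the summit over the local background with 1 added to each, was 23.0 in replicate 1 and 26.0 in replicate 2 (mean 24.5 ± 2.12, SD, n = 2). The summit was covered by 146 reads in replicate 1 (95% exact Poisson interval 123 to 172) and by 229 in replicate 2 (200 to 261). Both replicates placed it near the top of their lists, at rank 234 and rank 390 by −log10 p, and it ranked 332 among the 13238 shared regions. Its IDR was 1.06e-09. The nearest protein-coding start was that of ID3, and the next, that of E2F2, a cell cycle transcription factor, lay 31209 bp away. Only 4.06% of protein-coding genes had a shared region of at least this mean fold enrichment within 100 kb.

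The ID3 region held no forkhead word within 50 bp of its summit or within 100 bp of it. It held the E-box word CAGCTG at 2 positions, starting 44 bp and 23 bp to the left of the summit in the sequence shown. At least 1 CAGCTG occurred within 50 bp of the summit in 5.17% of shared regions, and 2 or more occurred in 29 of 13238, or 0.219%. This word was singled out after the sequence had been seen. The 201 bases centred on the summit were 57.7% G and C, against a median of 40.3% over all shared regions, and 4.04% of them were as rich.

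The other peaks at ID3 were unpaired, and all 4 came from replicate 2. The nearest lay 2469 bp downstream of the start, beyond the end of the gene, with a fold enrichment of 3.44 and 17 reads. The remaining 3 lay 34.7 kb upstream in an intron of MDS2, 37.6 kb downstream in an exon of E2F2, and 61.5 kb downstream in intergenic sequence. Their fold enrichments ran from 2.87 to 3.25. Thus all peaks listed in both replicates within 100 kb of ID3 came from 1 region. Wider windows held more shared regions, 4 within 200 kb and 8 within 500 kb.

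ID1 (ENSG00000125968, chr20:30193086-30194318, plus strand) had the most regions, and 3 of the 6 lay within 10 kb of its start. The strongest by rank lay 2.18 kb upstream, at chr20:30190656-30191197, in intergenic sequence. Fold enrichment there was 6.26 in replicate 1 and 11.8 in replicate 2 (mean 9.02 ± 3.89, SD, n = 2), from 36 and 64 reads. The IDR was 0.000418, and the region ranked 2825 among shared regions. No forkhead word lay within 100 bp of its summit.

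At the ID1 start itself the signal was weak. The shared region chr20:30192912-30193342 spanned the start, with the replicate 1 summit 78 bp inside the first exon and the replicate 2 summit 56 bp before it. Fold enrichment was 3.28 and 3.82, from 17 and 19 reads, and the IDR was 0.307, so the region was not reproducible by that threshold. The −log10 q was 2.80 and 4.27. The replicate summits lay 134 bp apart, so the region was not shared when summits had to lie within 100 bp. It was the only shared region within 2 kb of a start of any ID gene, and 8.64% of protein-coding genes had one. A forkhead word, ATAAACA on the minus strand, lay before the start and 34 bp from the shared summit, the point midway between the replicate summits. It was more than 50 bp from the replicate 1 summit. The word shared bases with a TATAAA sequence, the core of a TATA box, in the stretch shown. Whether the reads came from protein bound at that word was not tested.

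The region 9.46 kb upstream, chr20:30183365-30183898, had more reads than the start, 39 in replicate 1 and 64 in replicate 2. Its fold enrichment was only 2.95 and 4.53, with a local background of 12.6 reads in replicate 1 and 13.3 in replicate 2. The IDR was 0.0320. It had the same reads in replicate 2 as the region 2.18 kb upstream, where the background was 4.91 reads and 4.42 reads. Reads put the more distant region level with or above the closer one, and fold enrichment put it lower.

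The other 3 shared regions of the ID1 window lay more than 90 kb from ID1 and were closer to the starts of other genes. One lay 90.8 kb upstream, at chr20:30101840-30102640, and its summit was 2 bp from a start of HM13, the signal peptide peptidase gene. Fold enrichment was 3.64 in replicate 1 and 14.3 in replicate 2, with 19 reads (11.4 to 29.7) and 74 reads (58.1 to 92.9). The read ratio of 3.89 (95% interval 2.33 to 6.83) was reached by 0.138% of shared regions, and the interval lay above the genome-wide median of 1.80. This region was 70.6% G and C, and its IDR was 0.329. It was the least even region between the replicates among the 9.

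The remaining 2 lay in an intron of BCL2L1, which encodes an inhibitor of apoptosis, 94.9 kb and 99.4 kb downstream of the ID1 start. The former, chr20:30287761-30288166, had fold enrichments of 2.59 and 4.75, from 27 and 44 reads, and an IDR of 0.132. It held 2 ATAAACA words, 1 on each strand, the only region of the 9 with more than 1 forkhead word. The latter, chr20:30292242-30292755, had fold enrichments of 4.0 and 7.49, from 45 and 90 reads, and an IDR of 0.000897. It held no forkhead word. Of the 3 reproducible regions counted for ID1, 1 was thus inside BCL2L1 and near the edge of the window.

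Unpaired peaks made up the rest at ID1, with 4 in replicate 1 and 16 in replicate 2. The nearest to the start lay 9.11 kb upstream in replicate 1, with a fold enrichment of 2.07, and 8.28 kb upstream in replicate 2, with 2.11. Over all ID1 peaks, the median fold enrichment was 2.77 in replicate 1 and 3.50 in replicate 2. The strongest unpaired peaks, chosen after their values were seen, lay 45.4 kb and 36.7 kb upstream in introns of HM13, with fold enrichments of 6.86 and 6.39 in replicate 2 and no replicate 1 peak. Of the 22 replicate 2 peaks, 7 had ID1 as the nearest protein-coding start, as had 4 of the 10 replicate 1 peaks. The window held starts of 3 other protein-coding genes.

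ID4 (ENSG00000172201, chr6:19837601-19842428, plus strand) had 2 shared regions, both far from its start and both weak. The region 78.0 kb upstream, chr6:19759337-19759884, lay in an intron of the long noncoding RNA gene LNC-LBCS. Fold enrichment was 2.77 in replicate 1 and 4.20 in replicate 2 (mean 3.49 ± 1.01, SD, n = 2), from 29 and 50 reads, and the IDR was 0.0887. The intergenic region 30.0 kb downstream, chr6:19867293-19867937, had fold enrichments of 2.50 and 5.25 (mean 3.88 ± 1.94), 24 and 47 reads, and an IDR of 0.299. Each held 1 forkhead word, GTAAACA starting 48 bp from the summit in the former and ATAAATA starting 8 bp from it in the latter. No other protein-coding gene started in the ID4 window, and all 3 peaks of replicate 1 and all 6 of replicate 2 had ID4 as their nearest protein-coding start.

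Unpaired peaks at ID4 numbered 1 in replicate 1 and 4 in replicate 2. The replicate 1 peak lay 99.0 kb downstream with a fold enrichment of 2.30. The nearest in replicate 2 lay 10421 bp upstream, with a fold enrichment of 2.42 and 23 reads, and held ATAAACA starting 16 bp from its summit. None of the ID4 peaks lay in the gene body or within 10 kb of the start.

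ID2 (ENSG00000115738, chr2:8818975-8824591, plus strand) had no shared region. Its only peak was in replicate 2, 1063 bp upstream of the first annotated start and 4274 bp upstream of the start of the canonical transcript, in an exon of the antisense gene ID2-AS1. The peak had a fold enrichment of 4.39 from 22 reads, a background of 4.15 reads and a −log10 q of 5.62. It held ATAAACA starting 23 bp from its summit. Replicate 1 listed nothing in the window, and the reads below its listing limit are not known. The nearest shared region was 124991 bp downstream, chr2:8943589-8944564, in an intron of KIDINS220, a scaffold protein of neurotrophin signalling, 865 bp from a start of that gene. It had fold enrichments of 2.77 and 3.50 and an IDR of 0.207. A shared region at this distance or closer was found for 62.5% of protein-coding genes.

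**Figure D2:**
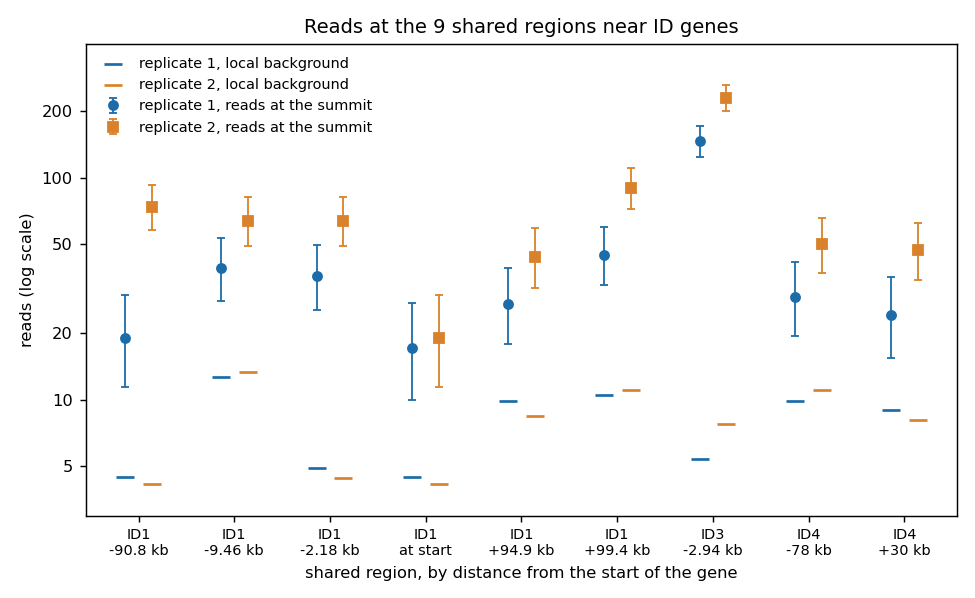
Reads over the summit (log scale) at the 9 shared regions near ID genes, with 95% exact Poisson intervals for counting error; circles are replicate 1, squares replicate 2, and short bars mark the local background. The ID3 region, with 146 and 229 reads, stands above the other 8 in both replicates, and the region at the ID1 start, with 17 and 19 reads, is the lowest in both.

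By their strongest shared region, the paralogues were ordered ID3, ID1 and ID4, with none at ID2. The fold enrichments were 23.0 and 26.0 at ID3, 6.26 and 11.8 at ID1, and 2.77 and 4.20 at ID4. Neighbours in this order did not overlap between replicates, and the order was the same in each replicate. Where the strongest peak was chosen again from replicate 2 alone, it was the HM13 region at ID1 (14.3) and the region 30.0 kb downstream at ID4 (5.25), and the order was kept. An exact permutation test of 2 values against 2 cannot go below p = 0.33, so none was used to call these differences. Reads at the summit gave ID3 the first place too, since its intervals lay above those of the other 8 regions in each replicate. Between ID1 and ID4 the read intervals overlapped in both replicates (36 and 29 reads in replicate 1, 64 and 50 in replicate 2). The highest mean fold enrichment within 100 kb was 9.02 at ID1, reached by 23.05% of protein-coding genes. At ID4 it was 3.88, reached by 54.95%, and the share for ID3 was 4.06%. Only the ID3 value was thus rare among genes. The strongest was taken from 6 regions at ID1, 2 at ID4 and 1 at ID3, which favours ID1 over ID4. Fold enrichment and reads were higher in replicate 2 in 9 of 9 regions, and fold enrichment was higher there in 91.9% of all shared regions.

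The local background separated the loci as well. Over all peaks within 1 Mb, the median background was 9.01 reads in replicate 1 and 7.74 in replicate 2 around ID1, which is 2.16 and 1.86 times the genome background. Around ID4 it was 8.99 and 8.75 reads, or 2.16 and 2.11 times. Around ID2 it was 4.67 and 4.15 reads, and around ID3 4.21 and 4.18 reads, at or slightly above the genome background. The strong ID3 region itself had a higher local background, 5.39 reads in replicate 1 and 7.74 in replicate 2. Among the 18213 genes in replicate 1 and 19623 in replicate 2 with at least 5 peaks within 1 Mb, as high a value as at ID1 was found for 0.401% in replicate 1 and 1.97% in replicate 2, and as high a value as at ID4 for 0.609% and 0.448%. Within 100 kb, the loci with the most peaks, ID1 and ID4, were those with raised background. Within 1 Mb, where this background was taken, ID3 had 21 peaks in replicate 1 and 43 in replicate 2, against 21 and 41 at ID4. ID1 had 34 and 73 there, and ID2 had 6 and 25. The part of the background in the counts was not tested. Among peaks within 100 kb with a fold enrichment of at least 3, ID1 had 4 in replicate 1 and 14 in replicate 2. ID4 had 0 and 4, ID3 had 1 and 4, and ID2 had 0 and 1.

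**Figure D3:**
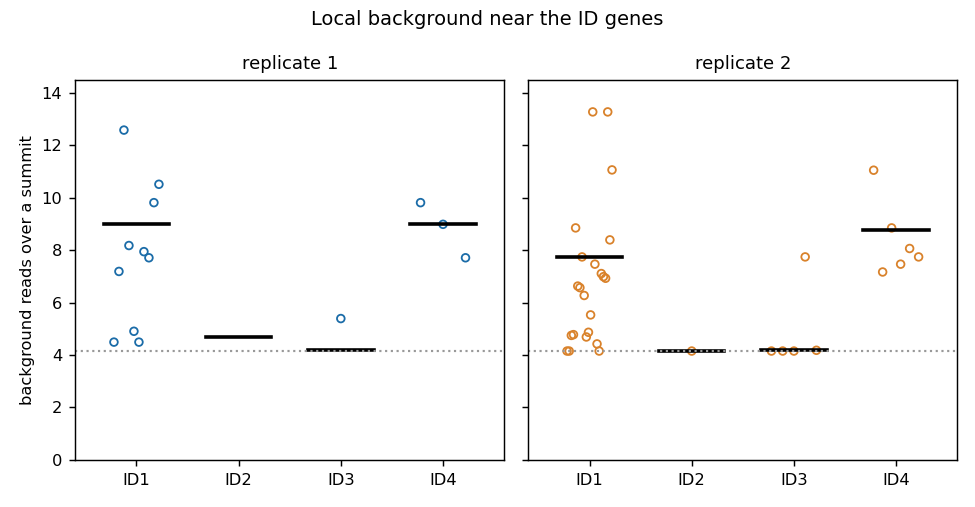
Background reads over the summit for each peak within 100 kb of an ID gene (open circles), with the median over peaks within 1 Mb (black bars) and the genome background (dotted line at 4.16 reads in replicate 1 and 4.15 in replicate 2). The bars of ID1 and ID4 lie between 7.74 and 9.01, while those of ID2 and ID3 lie between 4.15 and 4.67.

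The order of the paralogues by count depended on the window. Within 10 kb of the gene body, ID1 had 3 shared regions, ID3 had 1, and ID2 and ID4 had 0, while the median over all genes was 0. Within 500 kb the counts were 8, 8, 2 and 10 for ID1, ID3, ID2 and ID4, against a median of 5. Within 1000 kb they were 16, 16, 6 and 14, against a median of 9 and quartiles of 6 and 14. ID2 was below the median of all genes from 100 kb to 1000 kb. For the count within 10 kb, 4.46% of genes reached that of ID1 and 27.4% that of ID3.

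**Figure D4:**
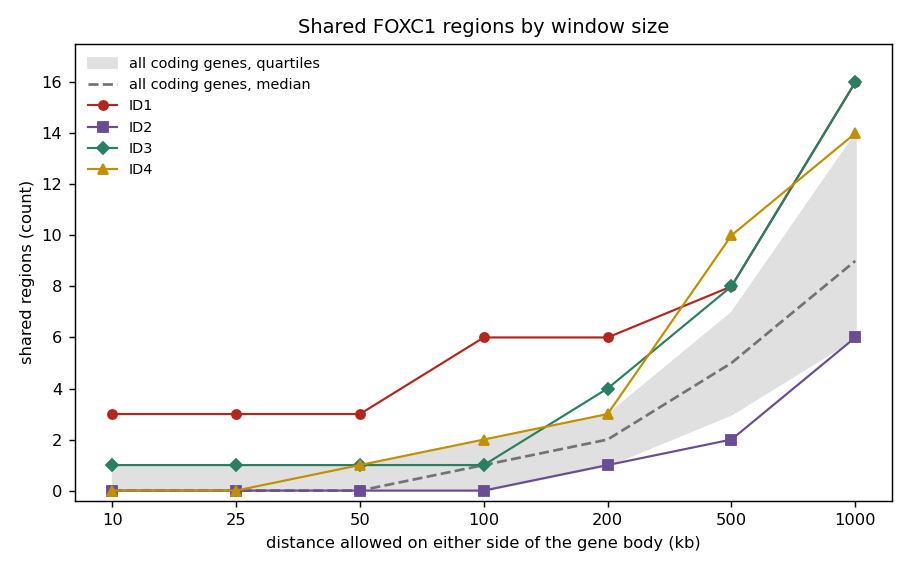
Number of shared regions against the distance allowed on either side of the gene body (kb, steps evenly spaced), for the 4 ID genes and for all protein-coding genes (median, dashed; quartiles, grey band). ID1 leads up to 200 kb with 6 regions, ID3 has the same 8 and 16 as ID1 at 500 kb and 1000 kb, and ID2 stays at or below the lower edge of the band from 100 kb on.

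Words for DNA-binding factors were counted on both strands within 50 bp of the shared summits, each midway between the summits of the replicates. A forkhead word lay in 4 of the 9 regions near ID genes (2 at ID1, 2 at ID4), against 48.7% of all shared regions and 10.8% of control windows 500 bp away. The strongest regions of ID3 and ID1 were among the 5 without one. The AP-1 word TGACTCA or its variant TGAGTCA lay in 0 of 9, against 16.6% of all shared regions. The E-box CANNTG lay in 5 of 9, against 41.2% of shared regions and 39.6% of control windows. The counts were read only against these shares, with no test over 9 regions, and the lack of a match says nothing about binding of the factor.

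The promoters of the genes were searched in the same way. In RefSeq sequence (GRCh38.p14) from 250 bases before to 50 after the start, ID1, ID2 and ID4 each held 1 forkhead word and ID3 held 0, against 13.6% of 35116 promoters. In ID1 and ID4 the word shared bases with a TATAAA sequence, beginning 35 bases before the start in ID1 and 28 bases before it in ID4. In ID2 it began 217 bases before the start. These positions count from RefSeq starts, which need not be the first annotated starts used for peak distances. The canonical start lay 6 bp downstream of the first annotated start at ID1 and 3211 bp downstream of it at ID2. A shared FOXC1 region spanned the start at ID1, and no peak of either replicate was listed within 10 kb of the start at ID4.

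Among the partners of ID proteins, the E protein genes TCF12 and TCF4 had shared regions within 100 kb and TCF3 had none, 2 of 3. The strongest at TCF12 lay in an intron of the gene 142 kb from its start, with fold enrichments of 10.2 and 16.9 (mean 13.5 ± 4.79, SD, n = 2), and that at TCF4 lay 89.0 kb upstream, with 3.58 and 5.13. Both genes are long, with a median of 381 kb over the list against 27.2 kb over all genes, and the window includes the gene body. Tissue-specific bHLH factors had a shared region at 9 of 20, or 45%, below the 62.3% of all genes, and their median length was 3.07 kb. The leading members were NEUROG1 and MYOD1, which direct neuronal and muscle differentiation, and TWIST2, a mesenchymal factor. Their strongest regions had mean fold enrichments of 16.5 ± 8.61, 11.9 ± 4.59 and 14.1 ± 5.67. None of these regions was near the gene's start. That of NEUROG1 lay 46.9 kb downstream in an intron of SLC25A48, and that of MYOD1 lay 71.1 kb downstream in intronic sequence of KCNC1 and SERGEF. That of TWIST2 lay 140 kb downstream in intergenic sequence.

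Genes of the BMP and SMAD pathway, which lies upstream of ID transcription, had a shared region at 12 of 15, or 80%, against 62.3% of all genes, and a reproducible one at 7, against 39% of all genes. Their median length was 78.0 kb, against 27.2 kb over all genes, and this too widens the window. SMAD7, an inhibitor of the pathway, had the strongest, with fold enrichments of 57.6 and 81.6 (mean 69.6 ± 17.0, SD, n = 2) 48.8 kb downstream of its start, ranked 19 among shared regions. SMAD5, a signal transducer, had a region 9.40 kb upstream with 5.21 and 12.2, and the ligand gene BMP4 had one 31.4 kb downstream with 5.50 and 14.1. In windows around the start alone the counts were 2 of 3 E proteins, 9 of 20 tissue factors and 10 of 15 pathway genes, against 55.7% of all genes. The strongest ID3 region thus lay between that of SMAD7 and those of all other genes of these lists in mean fold enrichment. Whether these lists differ from other genes was not tested.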

How the data were processed

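FOXC1 ChIP-seq of J82 cells comprised 4 libraries, 2 ChIP replicates and 2 inputs, grouped by their titles. Only the 2 ChIP peak lists were analysed here. Per the study's methods, single-end 75 bp reads were mapped to hg19 with bwa, and peaks were called on each replicate against input with MACS2 2.2.7.1. The filter of the lists is not given in the sources used here. The score deposited by the authors was −log10 p times 10, cut to a whole number. The authors' fold enrichment is a ratio of ChIP pileup to local background, each plus 1. The −log10 p and −log10 q deposited by the authors compare the same quantities.

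Peaks on chromosomes 1 to 22, X and Y were kept, leaving out 42 and 43. Reads and background at each summit were solved from fold enrichment and −log10 p, to a residual of at most 0.001. All peaks with −log10 p up to 300 were solved, and 56 and 223 lay above it. Totals assume a 2.7 Gb genome and fragments of 260 and 270 bp. Peaks overlapping by at least 1 bp were merged, and the shared summit was set midway. IDR, a copula mixture, was fitted to all shared regions on −log10 p. The strongest region of a gene has the best worse rank by −log10 p over the replicates. Intervals are 95% exact Poisson, and for read ratios exact binomial, and cover counting error only. Gene models were GENCODE version 44 lifted to GRCh37, whose main chromosomes equal those of hg19; the study used an older version. Distances of peaks and regions run from the gene's first annotated start, and those of promoter words from the RefSeq start. Sequences were read from GRCh37, except those of the promoters, which were RefSeq sequence (GRCh38.p14). Tools were Python 3.11.15, numpy 2.4.6, scipy 1.17.1, pandas 2.3.3 and pysam 0.24.0. Read recovery, the IDR fit, region overlap, window counts and word matching were tested on simulated or made-up data, and the other steps were not.

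The members and gene lists were chosen with earlier results of these data known. Named were all ID genes, their shared regions, the nearest unpaired peaks, the nearest coding genes and the 3 leading genes of each list. The J82 label was not checked against markers, since the lists hold no expression values. Window size, peak filters, overlap and IDR rules, motif windows and single replicates were varied.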

Additional observations from a re-analysis of the deposited data

How the results depend on the processing

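Each of 24 results was recomputed under its alternatives, 114 values in all, and 80 stayed within 1.5 times the count or 1 SD of the value reported. Some of these could not move. A count of 0 stays 0 under any stricter rule. With n = 2, the value of the same region in 1 replicate always lies within 1 SD of the mean. The tally is therefore not a measure of stability. With the strongest peak chosen again in each replicate alone, fold enrichment ran from 6.26 to 14.3 at ID1, from 23.0 to 26.0 at ID3 and from 2.77 to 5.25 at ID4, and the upper values of ID1 and ID4, from replicate 2, came from other regions than those reported. The SD rests on the same 2 replicates, so these ranges say little about stability. The order of ID4 and ID3 by shared regions, 2 and 1, turned to 3 and 4 at 200 kb and to 0 and 1 at the stricter q or a fold enrichment of at least 3, and was 1 and 1 at 50 kb and with 50% overlap. Reproducible regions at ID1 fell from 3 to 2 when ranked by fold enrichment or held to an IDR of 0.01, at the limit of 1.5 times. They stayed at 1 at ID3 and at 0 at ID4 and ID2. ID2 had no shared region and could not change. Given their IDR values, neither could ID3 and ID4 at an IDR of 0.01.

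Counts moved with the window. At 50 kb, ID1 had 5 peaks in replicate 1, 13 in replicate 2 and 3 shared regions, and ID4 had 1, 3 and 1. At 200 kb, ID2 had 1, 3 and 1, and ID3 had 4, 12 and 4. Among peaks with −log10 q from 5 upwards, ID1 had 3 and 9 peaks and 3 shared regions, ID4 had 0 and 3 peaks and 0 shared regions, ID3 had 1 peak in replicate 2, and 7 of 15 BMP and SMAD genes had a shared region, against 42.2% of all genes. With 50% of each peak required to overlap, ID4 had 1 shared region. At a fold enrichment of at least 3, chosen after seeing the data, ID1 had 4 and 14 peaks, and ID4 had 0 peaks in replicate 1 and 0 shared regions. Either replicate's list alone gave 10 to 22 peaks at ID1, 0 to 1 at ID2, 1 to 5 at ID3 and 3 to 6 at ID4. Forkhead words were in 2 regions within 25 bp, and GTAAACA alone was in 1.

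No paired analysis was possible because the input libraries had no values here and 1 group of 2 replicates is left. At the shared regions of 17 to 45 replicate 1 reads, other than that of ID3, depth limits the precision, and reads below the listing limit are not known.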
